A study of Homo sapiens with 6 samples.

Results

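The genes described here are the zinc finger genes of human chromosome 19 whose symbol is ZNF followed by a number. The rule took every measured gene with such a symbol that the RefSeq gene table places on chromosome 19. It found 225 genes of the 17687 measured, each with 1 probe set and each protein-coding. RefSeq lists 240 protein-coding genes that meet the rule, and the other 15 are not analysed here. The members were set beside the 1031 other measured genes of chromosome 19, beside 223 ZNF-numbered genes of other chromosomes, and beside all 17687 genes.

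The cells were Jurkat, an established human line from a T cell acute lymphoblastic leukaemia (T-ALL). Of 6 Affymetrix whole-transcript arrays, 3 came from cells held for 3 h inside polymerized collagen (bovine, type I, 1.7 mg/mL), named 3D, and 3 from cells kept in suspension for the same time. Both groups were cells of the same line in RPMI with fetal bovine serum, with no genetic change labelled. The labels number 3 biological replicates in each group without saying what separated them, so p-values measure the spread between these samples, which may be technical. Cells were mixed in before the collagen set, so contact with collagen and the embedding step cannot be told apart.

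Zinc finger proteins of this kind bind DNA through strings of C2H2 fingers, short loops that each hold a zinc ion and read a few bases. Many carry a KRAB domain at the amino end, which recruits TRIM28 and, through it, the histone methyltransferase SETDB1 and HP1 proteins, and so silences the bound locus. Many of these proteins bind transposable elements, and the genes arose by repeated tandem duplication, which is why so many lie in clusters on chromosome 19. Because neighbours in a cluster are similar copies, which copy gave a probe set's signal is uncertain for all members, as probe sequences were not used here.

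Many members carried the same short word upstream. RefSeq's promoter table (GRCh38.p14) held an entry for 197 of the 225 members, and the 250 bases before the start were searched on both strands. For the 32 members with over 1 listed start, the first listed was used. Of all words of 8 bases, the one whose share in members most exceeded its share in all promoters was TCCAATCA, which holds a CCAAT box, the core motif bound by NF-Y. It was picked by that count and therefore has no test. It lay in 49 of 197 member promoters (24.9%), in 7 of 857 promoters of other chromosome 19 genes (0.817%) and in 244 of 14250 promoters of all genes (1.71%). Of its 72 matches 71 read along the strand of the gene, and 64 lay within 100 bases of the start.

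All 49 carriers lay in 3 stretches of the chromosome. The stretch from ZNF101 to ZNF507 held 26 of them among 28 promoters, the stretch from ZNF653 to ZNF791 held 19 among 24, and the stretch from ZNF554 to ZNF77 held 4 among 5. The windows of 60 bases below show, for each stretch, the 2 carriers with the smallest p in the comparison of 3D with suspension. Capitals mark TCCAATCA, and each window is read 5′ to 3′ on the gene's strand.
ZNF708, GRCh38.p14 chr19:21329411-21329470, minus strand: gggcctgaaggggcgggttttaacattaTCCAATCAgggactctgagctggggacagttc
ZNF726, GRCh38.p14 chr19:23914801-23914860, plus strand: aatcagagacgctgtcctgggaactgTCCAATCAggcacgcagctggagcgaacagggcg
ZNF440, GRCh38.p14 chr19:11814181-11814240, plus strand: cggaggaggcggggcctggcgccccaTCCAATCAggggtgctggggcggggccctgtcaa
ZNF439, GRCh38.p14 chr19:11848666-11848725, plus strand: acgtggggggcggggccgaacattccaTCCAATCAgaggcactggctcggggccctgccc
ZNF556, GRCh38.p14 chr19:2867245-2867304, plus strand: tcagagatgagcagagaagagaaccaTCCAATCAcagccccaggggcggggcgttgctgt
ZNF57, GRCh38.p14 chr19:2900846-2900905, plus strand: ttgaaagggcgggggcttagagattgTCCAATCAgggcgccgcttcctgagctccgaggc

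The comparison asked how transcripts differ after 3 h in collagen. Zinc finger genes of chromosome 19 were mostly higher in 3D, while the other genes of the same chromosome were mostly lower. The median log2 difference, 3D minus suspension, was 0.20 over the 225 members and -0.17 over the 1031 other genes of chromosome 19, against -0.02 over all genes. A difference above 0 was measured for 168 members (74.7%) and for 228 of the other chromosome 19 genes (22.1%), against a background of 47.4% of all genes. For ZNF-numbered genes of other chromosomes the median was 0.05, with 125 of 223 above 0. No single member passed the test: limma with Benjamini-Hochberg adjustment over all genes called 0 of 225 below 0.05, against 0% of all genes, and the lowest adjusted p of a member was 0.330.

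At an unadjusted p under 0.05 (limma), 42 members were higher in 3D (18.7%) and 5 lower (2.22%), beside backgrounds of 5.90% and 3.97% of all genes. ZNF-numbered genes of other chromosomes leaned the same way, with 25 of 223 higher (11.2%) and 6 lower (2.69%). Among the other chromosome 19 genes the counts ran the opposite way, with 8 higher (0.776%) and 92 lower (8.92%). The 3 arrays of 3D lay above all 3 of suspension for 45 members (20%), beside a background of 8.28%, and below all 3 for 7 members (3.11%), beside 8.03%. For ZNF-numbered genes of other chromosomes these counts were 29 (13.0%) and 14 (6.28%). Without 3D replicate 3 the number higher at an unadjusted p under 0.05 was 18, without 3D replicate 2 it was 19, without suspension replicate 2 it was 26, and without 3D replicate 1 it was 63. The share over all genes in these fits was not counted. Centring each array on the other chromosome 19 genes moved every gene's difference up by the same amount. It gave 87 higher and 2 lower, and no count over all genes was made. Medians were then 0.36 for members and -0.0098 for those genes, and the gap stayed at 0.37. The counts after centring follow from that shift and are not a separate result. RMA sets all arrays to a common distribution, so every difference is relative to the rest of the transcriptome on the same array.

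**Figure D1:**
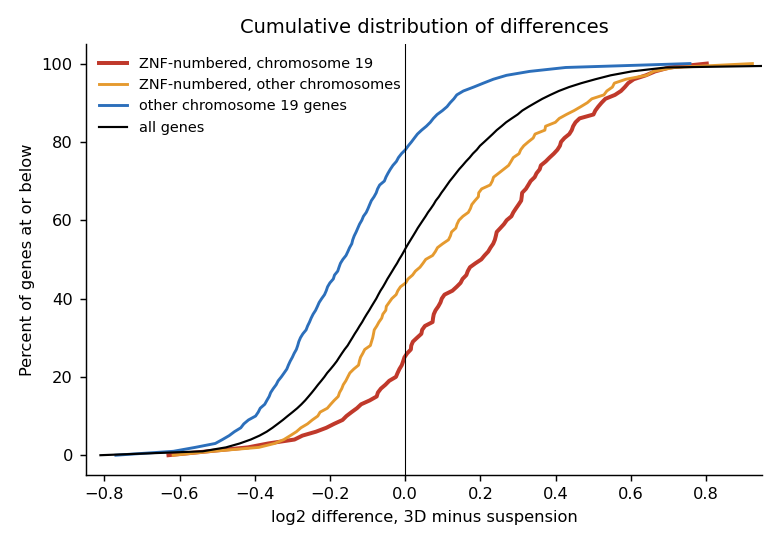
Cumulative distribution of the log2 difference (3D minus suspension, horizontal axis) as percent of genes (vertical axis) for 225 ZNF-numbered genes of chromosome 19, 223 of other chromosomes, 1031 other genes of chromosome 19 and all 17687 genes. The curve of the chromosome 19 zinc finger genes lies rightmost through the middle of the range (median 0.20) and that of the other chromosome 19 genes leftmost (median -0.17).

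The direction of the median was the same in each pair of like-numbered arrays. The members' median difference was 0.16 in pair 1, 0.27 in pair 2 and 0.18 in pair 3. The median of the other chromosome 19 genes was -0.21, -0.05 and -0.23 in the same pairs, so the gap between the medians was 0.37, 0.32 and 0.41. In all 3 pairs 102 members were higher in 3D (45.3%) and 14 lower (6.22%), beside backgrounds of 20.3% and 19.8% of all genes. Of the ZNF-numbered genes of other chromosomes, 30.9% were higher and 14.3% lower in all 3 pairs. Whether members differ from those genes was not tested.

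The members' median level was 6.05, 6.25 and 6.17 in 3D replicates 1, 2 and 3, against 5.82, 5.95 and 6.05 in suspension replicates 1, 2 and 3. 3D replicate 1 and suspension replicate 3 thus met at about the same median level. The first principal component of the members carried 56.8% of their variance, with 3D replicate 3 at one end (score 4.37) and suspension replicate 1 at the other (score -4.96). 3D replicate 1 (-0.298) stood beside suspension replicate 3 (0.00989) on it. Without suspension replicate 1 the members' median difference was 0.14, and over the 6 fits with 1 array left out it ran from 0.14 to 0.25.

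Each array's probe set median was between 5.55 and 5.64, and arrays correlated at 0.971 to 0.991 across genes. T cell markers stood at a median level of 9.20 (14 of 14 measured, 6.45 to 11.74) and 16 of 18 markers of other cell types at 4.57 (2.59 to 8.28, the highest being CD79A, itself a chromosome 19 gene). The summed level of the markers of other cell types ran from 76.97 to 77.79 in 3D and from 77.94 to 79.71 in suspension. That of the T cell markers ran from 125.0 to 129.1 in 3D and from 128.2 to 129.9 in suspension. Of the T cell markers 4 were higher in 3D and 10 lower, with a median log2 difference of -0.23. Of the markers of other cell types 3 were higher and 13 lower (median -0.12), beside 47.4% of all genes above 0. After adjustment 0 passed in either list (limma). The part of these shifts in the zinc finger result was not tested, and in bulk RNA a change in the mix of cells and a change of RNA per cell cannot be told apart.

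The largest difference of a member belonged to ZNF224, a KRAB zinc finger gene first described as a repressor of the aldolase A gene and a partner of WT1. It measured 7.51, 7.62 and 7.28 in 3D, against 6.82, 6.51 and 6.67 in suspension. The groups did not overlap, and the log2 difference was 0.80 ± 0.17 (SE), or 1.74-fold, with an adjusted p of 0.330 (limma). It did not pass the threshold.

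ZNF708 measured 7.84, 7.46 and 7.60 in 3D, against 6.81, 6.98 and 6.99 in suspension. Every 3D array lay above every suspension array, with a log2 difference of 0.71 ± 0.17 (SE) and an adjusted p of 0.347 (limma). ZNF708 is one of the cluster around ZNF91 and has the TCCAATCA word 32 bases before its start. ZNF610 measured 6.15, 6.25 and 6.05 in 3D, against 5.49, 5.61 and 5.55 in suspension. The arrays within each group were close together (SD 0.10 and 0.06, n = 3 each), and the difference was 0.60 ± 0.15 (SE).

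The next 7 members by p on the higher side were ZNF888, ZNF440, ZNF461, ZNF726, ZNF562, ZNF439 and ZNF121, C2H2 genes with no role given here. Their log2 differences were 0.64 ± 0.18 (SE) for ZNF888, 0.68 ± 0.19 for ZNF440, 0.63 ± 0.18 for ZNF461 and 0.56 ± 0.16 for ZNF726. They were 0.66 ± 0.19 for ZNF562, 0.51 ± 0.15 for ZNF439 and 0.59 ± 0.18 for ZNF121. In all 7 the groups did not overlap, and adjusted p ran from 0.380 to 0.399 (limma), so none passed. ZNF888 was the dimmest of them, at 5.11 ± 0.27 in 3D and 4.47 ± 0.07 in suspension (SD, n = 3 each), and ZNF121 the brightest, at 9.04 ± 0.12 and 8.45 ± 0.26.

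On the lower side, ZNF414 had the smallest p. It measured 5.15, 5.04 and 5.08 in 3D, against 5.59, 5.50 and 5.92 in suspension. The groups did not overlap and the log2 difference was -0.58 ± 0.17 (SE), with an adjusted p of 0.380 (limma).

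ZNF574 measured 5.84, 6.19 and 5.55 in 3D, against 6.55, 6.54 and 6.38 in suspension, a difference of -0.63 ± 0.19 (SE). ZNF473, which encodes a protein of the U7 particle that processes histone mRNA, measured 7.19, 7.52 and 7.41 in 3D, against 7.77, 7.64 and 8.0 in suspension. Its difference was -0.43 ± 0.17 (SE), and neither gene's groups overlapped. The other lower members named by p were ZNF575 (-0.51 ± 0.17), ZNF653 (-0.53 ± 0.18), ZNF324 (-0.41 ± 0.19), ZNF526 (-0.35 ± 0.17), ZNF71 (-0.40 ± 0.20), ZNF550 (-0.29 ± 0.17) and ZNF358 (-0.30 ± 0.21). None of the 10 passed, with adjusted p from 0.380 to 0.634 (limma).

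**Figure D2:**
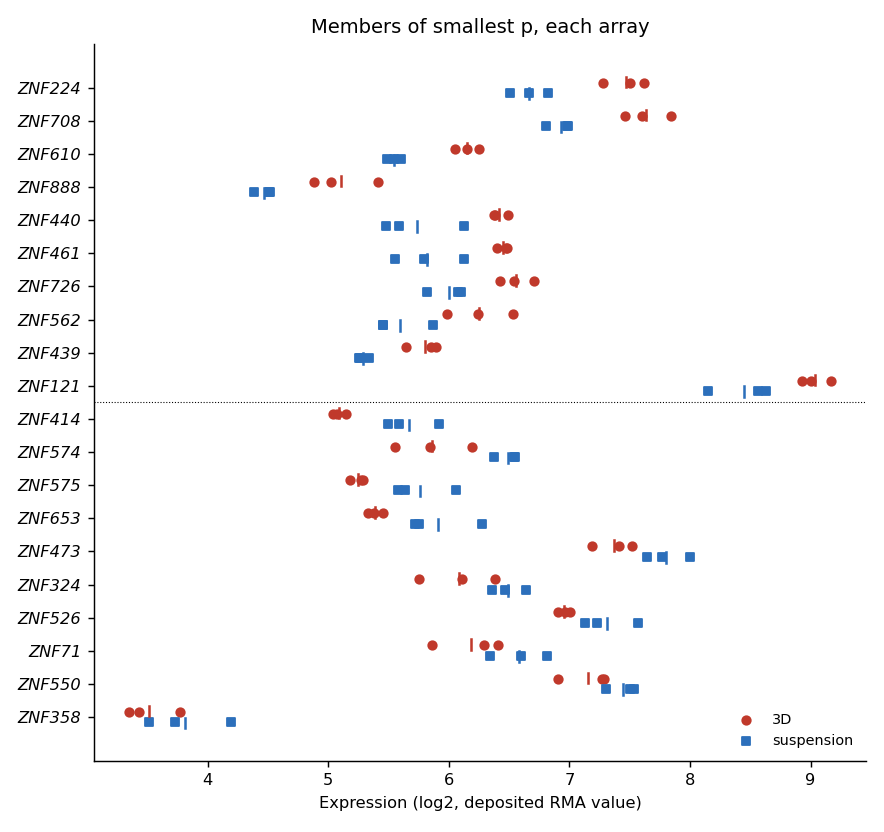
Deposited log2 expression (horizontal axis) of the 10 members of smallest p higher in 3D (upper block) and the 10 lower in 3D (lower block), with circles for the 3 arrays of 3D, squares for the 3 of suspension and vertical bars for the means. The groups do not overlap for any of the upper 10, and they overlap for ZNF324, ZNF71 and ZNF358 in the lower block.

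The 7 members that lay lower in every 3D array had a median gene span of 13.1 kb (4.49 to 22.8 kb in RefSeq), and the 45 that lay higher had 29.8 kb (7.83 to 122.5 kb), beside 23.1 kb over all members. The 7 were ZNF414, ZNF574, ZNF575, ZNF653, ZNF473, ZNF526 and ZNF550.

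With the replicate number of the titles as a block, limma still called 0 members after adjustment (lowest adjusted p 0.0672), while it called 0.0905% of all genes. At an unadjusted p under 0.05 the block gave 67 members higher and 8 lower, beside backgrounds of 10.0% and 7.36%. In a setting chosen after results were seen, the block with genes of mean level at or above 6, 38 members rose and 2 fell among the 116 tested. The background in that setting was 10.6% of 8342 genes higher and 3.78% lower, against 32.8% and 1.72% of the members. Of the 129 ZNF-numbered genes of other chromosomes in the setting, 31 rose (24.0%) and 2 fell (1.55%). Of the 432 other chromosome 19 genes in it, 5 rose and 50 fell. The prior carried 25.0 of its degrees of freedom and the arrays 2. The same 116 members gave 0 calls without the block.

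The calls of that setting moved with the pair left out. Without pair 1 there were 12 (10 higher, 2 lower), without pair 2 there were 35 (32 and 3), and without pair 3 there were 13 (13 and 0). Over all 8342 genes the same 3 fits called 458, 1457 and 406, against 1199 with all pairs. Of the 40 genes, 6 were called in all 3 of these fits: ZNF224 (0.80 ± 0.14 SE with the block, adjusted p 0.00106), ZNF91 (0.76 ± 0.14, 0.00122), ZNF611 (0.67 ± 0.14, 0.00280), ZNF440 (0.68 ± 0.15, 0.00379), ZNF432 (0.59 ± 0.14, 0.00624) and ZNF101 (0.57 ± 0.14, 0.00732). ZNF611 and ZNF432 are named here after their values were seen. The 2 that fell were ZNF574 (adjusted p 0.00482) and ZNF473 (0.0414).

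Members known to silence transposable elements had unlike values, and none passed the test. ZNF91 represses SVA elements and lies in the cluster of the same name. It measured 7.55, 8.0 and 8.21 in 3D, against 6.70, 7.20 and 7.59 in suspension. It was higher in each pair, but 3D replicate 1 lay just under suspension replicate 3, and the difference was 0.76 ± 0.24 (SE) with an adjusted p of 0.399 (limma).

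ZNF93, which represses a class of L1 elements, measured 6.0, 6.43 and 6.42 in 3D, against 6.27, 6.07 and 6.45 in suspension. Its groups overlapped throughout, with a difference of 0.02 ± 0.18 (SE). ZNF417 and ZNF587 are close paralogs that bind endogenous retroviruses. ZNF417 had a difference of 0.31 ± 0.20 (SE) and ZNF587 of 0.31 ± 0.18. In both, pair 1 was below 0 and pairs 2 and 3 above it.

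ZNF274, which recruits SETDB1 to the ends of zinc finger genes themselves, measured 5.04, 5.28 and 5.61 in 3D, against 4.85, 5.50 and 5.32 in suspension. The groups overlapped and the difference was 0.08 ± 0.21 (SE). ZNF675, described as an inhibitor of TRAF6 signalling, averaged 9.31 ± 0.21 in 3D and 8.87 ± 0.32 in suspension (SD, n = 3 each). ZNF146, a gene of fingers without a KRAB domain and the brightest member, averaged 9.75 ± 0.10 in 3D and 9.33 ± 0.26 in suspension (SD, n = 3 each). Its groups did not overlap, with a difference of 0.42 ± 0.18 (SE) and an adjusted p of 0.496 (limma).

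The other members with a known role had differences within about their standard errors, ZNF324 apart. The difference was 0.21 ± 0.20 (SE) for ZNF568, whose mouse counterpart silences a placental Igf2 transcript, and 0.15 ± 0.16 for ZNF331, an imprinted gene. It was -0.02 ± 0.16 for ZNF350, a partner of BRCA1, and -0.08 ± 0.23 for ZNF541, a meiotic gene in mouse. ZNF324, a gene linked to cell proliferation, was at 6.39, 6.11 and 5.75 in 3D, against 6.36, 6.47 and 6.64 in suspension. Its groups overlapped through 3D replicate 1.

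The silencing machinery that KRAB proteins call on was described from a list. Of 24 listed genes 23 were measured, with a median log2 difference of 0.18, 15 above 0 and 8 below, beside the 47.4% of all genes above 0. After adjustment 0 passed (limma), and at an unadjusted p under 0.05 there were 3 higher and 0 lower, beside 5.90% and 3.97% of all genes. TRIM28, the shared corepressor, which itself lies on chromosome 19, measured 9.83, 10.25 and 9.98 in 3D, against 10.32, 10.15 and 10.32 in suspension. The groups overlapped, and the difference was -0.24 ± 0.17 (SE).

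SETDB1, the H3K9 methyltransferase, had a difference of 0.08 ± 0.20 (SE). The 4 machinery genes of smallest p were SENP7, a SUMO protease (0.71 ± 0.21), the TRIM28 relatives TRIM33 (0.42 ± 0.16) and TRIM24 (0.63 ± 0.23), and SMARCAD1, a chromatin remodeller (0.39 ± 0.19). Their adjusted p ran from 0.380 to 0.518 (limma). With the block and the limit of 6 on the mean, 4 of the 20 machinery genes tested rose and 0 fell, beside 10.6% and 3.78% of all genes: SENP7 (adjusted p 0.00193), TRIM24 (0.00474), TRIM33 (0.0362) and TASOR, a HUSH complex subunit (0.48 ± 0.30 SE without the block, 0.0229). TASOR is named after its values were seen. CBX5 is not analysed here.

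Along the chromosome the members formed 10 runs of 5 or more, where a run ended at a gap of over 10 other protein-coding genes. Distance in bases and chromosome arm were not used to cut the runs. These held 215 of the 225 members. The largest medians belonged to the runs ZNF414 to ZNF846 (0.36, 10 of 11 above 0), ZNF101 to ZNF507 (0.36, 30 of 35), ZNF565 to ZNF573 (0.35, 19 of 22) and ZNF302 to ZNF792 (0.34, 4 of 5). ZNF653 to ZNF791 stood at 0.27 (22 of 25) and ZNF175 to ZNF331 at 0.24 (31 of 35).

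These 6 runs had medians above 0 in each of the 3 pairs, as did ZNF575 to ZNF180 (0.24, 0.01 and 0.08). The run ZNF101 to ZNF507, which holds ZNF91, ZNF93, ZNF675 and ZNF708, had 0.30, 0.36 and 0.33 in pairs 1, 2 and 3, and 15 of its 35 members were higher at an unadjusted p under 0.05, beside 18.7% of all members and 5.90% of all genes. At its edges stood ZNF101, at 8.90 ± 0.16 in 3D and 8.33 ± 0.26 in suspension (SD, n = 3 each), and ZNF507, at 9.09 ± 0.17 and 8.57 ± 0.49. Of its 35 members 5 were below 0: ZNF99, ZNF486, ZNF90, ZNF682 and ZNF536, with means over the 6 arrays from 2.78 to 5.59.

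The other 4 runs had medians from -0.06 to 0.10. ZNF575 to ZNF180, the run of ZNF224, had 0.10, with 17 of 23 above 0, and its median level was 3.41, the lowest of the runs. ZNF787 to ZNF446, the run at the end of the long arm and the largest, had 0.04 with 28 of 49 above 0, and its pairs stood at -0.05, 0.27 and 0.09. ZNF554 to ZNF77 had -0.03 (2 of 5 above 0) and ZNF628 to ZNF784 had -0.06 (1 of 5).

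The runs that hold TCCAATCA had unlike medians. ZNF101 to ZNF507 and ZNF653 to ZNF791 stood at 0.36 and 0.27, and ZNF554 to ZNF77 at -0.03. Over all 49 carriers the median difference was 0.32 with 41 above 0. For members whose promoter lacked the word it was 0.16, with 105 of 148 above 0. Runs without the word had medians from -0.06 (ZNF628 to ZNF784) to 0.36 (ZNF414 to ZNF846). Among them, ZNF565 to ZNF573 stood at 0.35, ZNF302 to ZNF792 at 0.34 and ZNF787 to ZNF446 at 0.04. Whether the word matters apart from the run was not tested. A sequence match is a description and not a binding site.

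Among the first and last members of the runs, ZNF414 (-0.58), ZNF653 (-0.53) and ZNF575 (-0.51) each opened a run and were lower than every other member of it. ZNF101 (0.57 ± 0.18 SE), ZNF507 (0.53 ± 0.23) and ZNF331 (0.15 ± 0.16) were ends too. The remaining ends were ZNF846 (0.51 ± 0.20 SE), ZNF573 (0.45 ± 0.17), ZNF302 (0.44 ± 0.30), ZNF565 (0.31 ± 0.22), ZNF791 (0.28 ± 0.18) and ZNF554 (0.09 ± 0.16). ZNF446 (0.02 ± 0.15), ZNF175 (0.01 ± 0.18), ZNF784 (-0.06 ± 0.21), ZNF180 (-0.07 ± 0.20), ZNF77 (-0.10 ± 0.16), ZNF792 (-0.13 ± 0.18), ZNF787 (-0.20 ± 0.18) and ZNF628 (-0.28 ± 0.20) made up the rest.

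**Figure D3:**
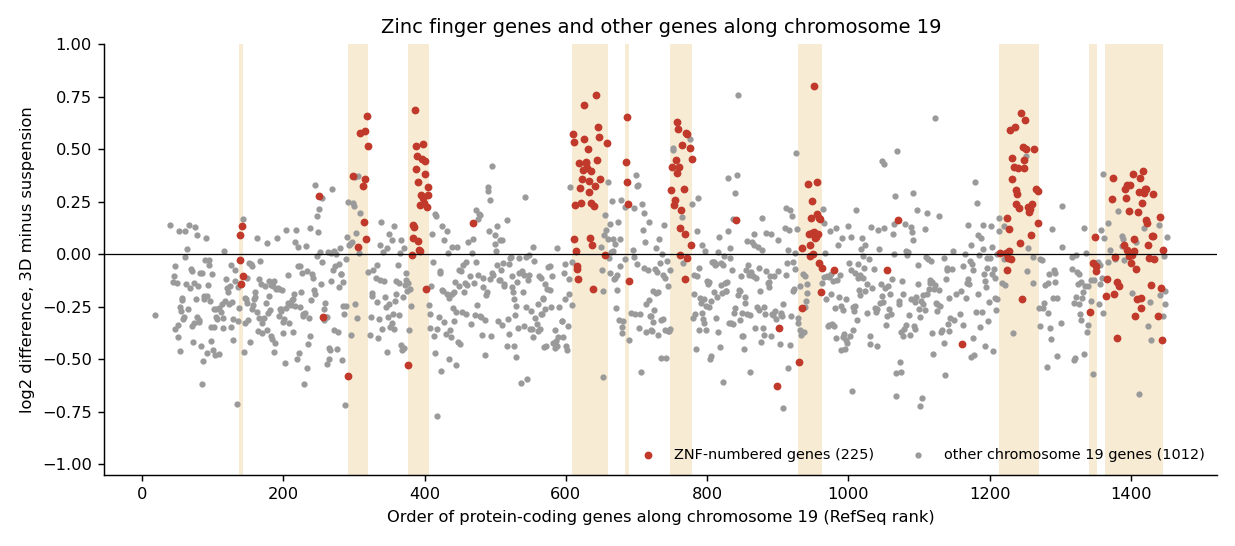
Log2 difference (3D minus suspension, vertical axis) of 225 ZNF-numbered genes and 1012 other protein-coding genes of chromosome 19, placed by their rank among protein-coding genes in RefSeq (horizontal axis); shaded bands are the 10 runs. Medians of the zinc finger genes are 0.24 or more in 6 of the bands and 0.10 or less in the other 4, while the genes between the bands lie mostly below 0.

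Genes that lie between the members of these runs but do not meet the rule numbered 70. Their median difference was -0.04, with 30 above 0, between the members (0.20) and the other chromosome 19 genes as a whole (-0.17). The 13 of them with a ZFP, ZSCAN or lettered ZNF symbol had a median of -0.02. The other 57 had -0.08 at a median level of 4.62. That split went by symbol alone, and the 57 still held ZNF816-ZNF321P (0.47). Whether others of the 57 encode zinc fingers was not checked. Other chromosome 19 genes with a level of 2.34 to 5.01 had a median of -0.09. A part of position in the run was not tested. In the run ZNF653 to ZNF791 the 3 such genes were ECSIT (-0.36), ELOF1 (-0.24) and CNN1 (-0.17), all below 0 beside a members' median of 0.27. In ZNF575 to ZNF180 all 10 were below 0 (median -0.20), among them the DNA repair gene XRCC1 at -0.36.

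In ZNF565 to ZNF573 the 5 genes in between were themselves zinc finger genes by symbol, namely ZFP30 (0.55), ZFP14 (0.50), ZFP82 (0.50), ZNF585A (0.18) and ZNF585B (-0.04). Over the 17 chromosome 19 genes with a ZFP, ZSCAN or lettered ZNF symbol the median was 0.06, with 10 above 0. ZSCAN4 (-0.66) and ZSCAN18 (-0.41) were the lowest of those inside runs.

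**Figure D4:**
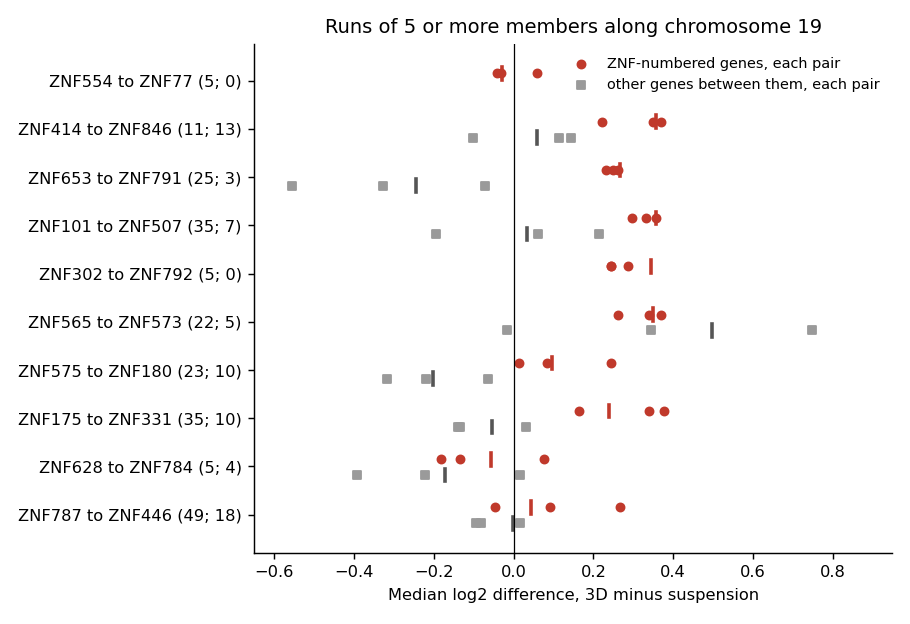
Median log2 difference (3D minus suspension, horizontal axis) in the 10 runs, given with the number of members and of other genes between them; circles are the members' medians in the 3 replicate pairs, squares those of the other genes, and vertical bars the medians of the mean differences. In 6 runs all 3 circles lie at or above 0.16, and in ZNF653 to ZNF791 and ZNF575 to ZNF180 all squares lie below 0.

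Differences were set out by level. Among the 75 least expressed members (mean log2 level 2.34 to 5.01) the median difference was 0.07 with 47 above 0. It was 0.21 with 51 above 0 among the 75 intermediate ones (5.03 to 6.78) and 0.35 with 70 above 0 among the 75 most expressed (6.81 to 9.54). The 5 exceptions in the last class were ZNF526, ZNF473, ZNF444, ZNF547 and ZNF550.

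Other chromosome 19 genes went the other way with level. In the same 3 ranges their medians were -0.09, -0.17 and -0.25, and in the highest range 24 of 308 were above 0. All genes in that range had a median of 0.04 with 55.2% above 0. The Spearman correlation of difference with level was 0.428 across the 225 members and -0.329 across the 1031 other genes; genes of the same arrays are not independent, so these are descriptions.

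The 5 brightest members were ZNF146, ZNF100, ZNF460, ZNF675 and ZNF430. ZNF100 averaged 9.65 ± 0.29 in 3D and 9.24 ± 0.27 in suspension (SD, n = 3 each), ZNF460 9.33 ± 0.11 and 9.06 ± 0.25, and ZNF430 9.25 ± 0.39 and 8.89 ± 0.27. All 5 had means higher in 3D, ZNF460 in 2 of 3 pairs and the others in all 3. The 5 dimmest were ZNF471, ZNF404, ZNF829, ZNF285 and ZNF223, with means over the 6 arrays from 2.34 to 2.49. Their differences ran from -0.01 for ZNF471 to 0.16 for ZNF285.

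Detection flags were not used here, so whether the dimmest members were expressed is uncertain: 63 of 225 lay below the median of the markers of other cell types, and their median difference was 0.08. Below the 90th percentile of those markers (7.07) lay 165 of the 225.

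**Figure D5:**
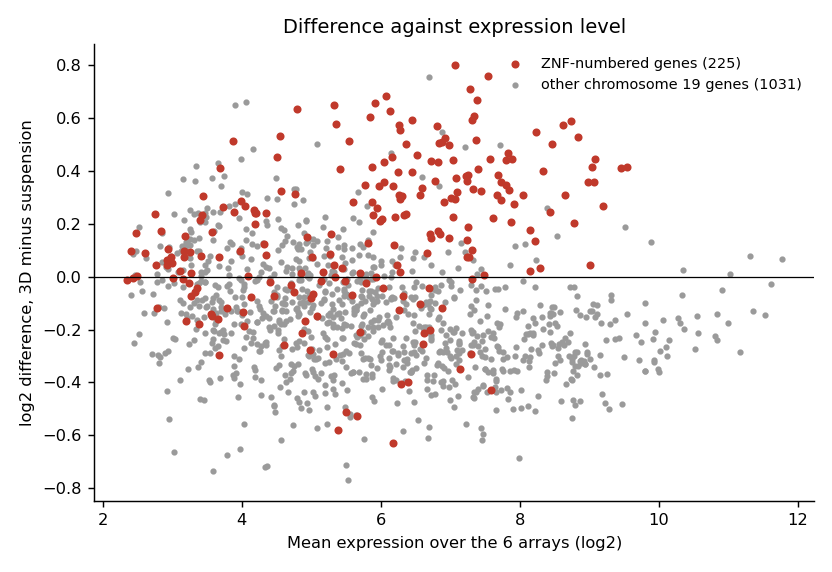
Log2 difference (3D minus suspension, vertical axis) against mean expression over the 6 arrays (log2, horizontal axis) for 225 ZNF-numbered and 1031 other genes of chromosome 19. Above a level of 6.81, 70 of 75 zinc finger genes lie above 0 and 24 of 308 other genes of the same range do.

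Gene span, the length from first to last base in RefSeq, ran alongside. The members' median span was 23.1 kb and that of the other chromosome 19 genes 12.9 kb. The 75 members of shortest span (3.57 to 17.5 kb) had a median difference of 0.08, the intermediate 75 (17.5 to 29.9 kb) 0.23 and the 75 longest (30.2 to 488.0 kb) 0.31. Other chromosome 19 genes in the same 3 span ranges had medians of -0.16, -0.20 and -0.14, and all genes -0.08, -0.03 and 0.05. With each array's straight-line trend of expression on the logarithm of span removed, the members' median was 0.20 and that of the other chromosome 19 genes -0.14.

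Other promoter features were counted the same way. The ETS core CCGGAAG lay in 61 of 197 member promoters (31%), 98 of 857 of other chromosome 19 genes (11.4%) and 11.9% of all, and CCAAT, which TCCAATCA contains, in 50.3%, 37.0% and 34.6%, both strands counted. CCGGAAG was present in 17 of the 41 promoters of members higher in every 3D array. It was in 0 of the 6 of members lower in every 3D array, a small number. CCAAT lay in 23 of 41 and 1 of 6, beside 50.3% of all member promoters. TCCAATCA lay in 15 of 41 and 0 of 6, beside 24.9%. The 41 and the 6 were picked by their differences, so these counts have no test. Members with CCGGAAG had a median difference of 0.25 and members without it 0.15. Among the 41 the order was reversed, with 0.36 for those with it and 0.46 for those without. The GC box GGGCGG lay in 66.0% of member promoters, 64.1% of those of other chromosome 19 genes and 57.0% of all, and TATAAA in 2.03%, 7.82% and 8.99%. The 250 bases held a median of 16 CpG in members, against 17 in other chromosome 19 genes and 18 in all genes.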

How the data were processed

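Each of the 6 columns holds the authors' log2 signal of 1 array, as deposited. The submitters' processing notes name RMA and the Transcriptome Analysis Console; versions, probe annotation and build are not given in the sources used here. Per the labels' protocols, labelling used a GeneChip WT PLUS kit. Of 21448 probe sets, 17709 had 1 gene symbol and 3739 none; all 17709 matched RefSeq (GRCh38.p14) by gene identifier. The probe set of highest mean was kept for 20 genes with over 1. There were 0 unused columns of sample values.

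Groups and replicate numbers came from the titles. Groups were compared with limma 3.58.1 under R 4.3.3 (lmFit, then eBayes) over all 17687 genes, two-sided, without block or filter, Benjamini-Hochberg adjusted, threshold 0.05, with 4 residual and 6.79 prior degrees of freedom. Medians and counts over the members have no test. The script was tested on simulated arrays. The number of arrays limits the precision.

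After subtracting group means, like-numbered arrays correlated at 0.521, 0.120 and 0.337, all over the limit of 0.1, so the numbers were taken as pairs; crossing numbers 2 and 3 gave 0.230 and 0.149. Over the members alone like-numbered arrays correlated at 0.371, -0.0593 and 0.348. With numbers 2 and 3 crossed the block called 47 of all genes, against 16 as numbered. The labels do not state a pairing, so the pairs are an assumption for numbers 2 and 3.

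The members, lists and named genes were chosen with earlier results of these data known. Named members were the 10 of smallest p in each direction, the 5 brightest and dimmest, ends of runs, and 13 with a known role; of the machinery, the 4 of smallest p with TRIM28, SETDB1 and CBX5. Genes named as exceptions to a count, as neighbours in runs or as block calls were chosen after their values were seen. Finger counts and KRAB matches in proteins, which the design listed, were not analysed here for want of a protein table. Gene order and span served from RefSeq; the files name no build, so coordinates are given for the RefSeq promoter windows only. Plots used matplotlib 3.10.9 under Python 3.11.15.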

Additional observations from a re-analysis of the deposited data

How the results depend on the processing

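The 3 arrays a group and the low level of many members limit these results. With the block, the numbers of the titles pair the arrays; it called 0 members, with 67 higher and 8 lower at an unadjusted p under 0.05. Settings chosen after seeing the data gave the calls below, with those over all genes tested in brackets. The block joined to a lower limit of 6 on the mean gave 40 (1199). With that limit, adding quantile normalization gave 35 (1215) and removing the span trend gave 42 (1058). Crossed numbers gave 1 (47), and crossed numbers with the mean limit gave 34 (995). Block and mean limit without pair 1, 2 and 3 gave 12, 35 and 13 (458, 1457 and 406). The cause was not tested.

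Over the fits without 1 array, members higher at an unadjusted p under 0.05 numbered 18 to 63 and lower 4 to 8, those higher in every 3D array 47 to 104 and lower 10 to 13 (fewer arrays to separate). Shares over all genes were not counted for these fits, so the members' counts cannot be read against the backgrounds of the main comparison. The members' median ran from 0.14 to 0.25, its gap to other chromosome 19 genes from 0.26 to 0.42, and the machinery's median from 0.0732 to 0.188. Centring on other chromosome 19 genes gave a members' median of 0.36, -0.0098 for the other genes, 87 higher, 2 lower, 96 higher in every 3D array, and 0.33 for the machinery. Centring moves every gene up alike and left the gap at 0.37, and shares over all genes were not counted for it. The mean limit kept only 116 members, so its counts cannot be set beside those over all members. It gave a members' median of 0.32 and a gap of 0.56. Of the 116, 28 were higher and 2 lower at an unadjusted p under 0.05 (limma). In every 3D array 31 were higher and 4 lower, and shares over all genes were not counted here either. The machinery's median was 0.13 with the mean limit, 0.12 after quantile normalization and 0.11 without the span trend.

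Of 55 named members, 16 near 0 changed sign under some setting. Centring gave 0.0285 for ZNF792, 0.054 for ZNF77, 0.0782 for ZNF541, 0.0906 for ZNF180, 0.0979 for ZNF784, 0.138 for ZNF350, 0.144 for ZNF471 and 0.151 for ZNF829. Quantile normalization gave 0.0331 for ZNF350 and -0.0354 for ZNF175, also with the block and mean limit. Removing the span trend gave 0.0182 for ZNF784. With block and mean limit, leaving out pair 1 gave 0.019 for ZNF792, pair 2 -0.0124 for ZNF331, -0.154 for ZNF93 and -0.18 for ZNF175, and pair 3 -0.0305 for ZNF554. Without 1 array, the ranges were -0.098 to 0.146 for ZNF175, -0.261 to 0.0811 for ZNF180, -0.0959 to 0.172 for ZNF223, -0.101 to 0.221 for ZNF274, -0.119 to 0.072 for ZNF350, -0.0007 to 0.21 for ZNF404 and -0.0141 to 0.039 for ZNF446. They were -0.049 to 0.0195 for ZNF471, -0.31 to 0.152 for ZNF541, -0.299 to 0.124 for ZNF784, -0.252 to 0.0258 for ZNF792, -0.132 to 0.197 for ZNF829 and -0.0801 to 0.157 for ZNF93. The alternative that picks members by protein was not run; widening by symbol to 242 genes gave a median of 0.18 and 0 calls.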
